A study of Rattus norvegicus with 12 samples.

Results

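The 5 genes whose brightest array probe was higher in rats given tert-butyl alcohol (TBA) and killed under CO2-O2, and that are described here with every probe the array carries for them, are Hrh4, Nus1, Tcf15, Pax3 and Adamtsl4. They are 5 of 29603 features tested. The members were picked from the TBA difference under CO2-O2, where they held ranks 3 to 7 by log2 difference among the 23 called genes with a symbol and non-overlapping groups. That difference is therefore given for them as a description with no test. The tests compare the rats killed under isoflurane, whose values the rule did not use. The genes were still proposed with results of both arms known. The standard errors and p-values of these tests pool the spread within all 4 groups. They thus draw partly on the CO2-O2 rats by which the members were chosen. The array held 12 probes for the 5 genes (of 61657 non-control probes), and 9 of the 12 passed the filter on dim probes, which kept a probe if some group had it clear of background in each of its 3 rats.

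The study measured renal cortex RNA in 12 male rats of the Sprague-Dawley stock (Crl:CD(SD)), bought at 5 weeks of age, with 1 one-colour Agilent array per rat. There were 4 groups of 3 rats: water (the vehicle) or TBA for 4 weeks (1000 mg/kg/day), each killed by bleeding 24 hours after the last dose under either CO2-O2 (4:1) or isoflurane. TBA, a small tertiary alcohol, is a solvent and fuel additive studied in the rat kidney. All 10 proximal tubule marker genes listed were measured above background. Their summed level, in multiples of the array's 75th percentile, was 1767 to 1865 in vehicle and 1878 to 1905 in TBA rats under CO2-O2, and 1740 to 1818 and 2024 to 2192 under isoflurane, higher with TBA without overlap in both arms. Of the 10 markers, 7 were above 0 under CO2-O2 (median 0.13, 1 called) and 10 under isoflurane (median 0.28, none called), and their part in the values below was not tested. In whole cortex, more cells of a type and more RNA per cell cannot be told apart. The share of probes well above background was 61.6% to 71.0% per array, and no probe was saturated. Of the 3 slides, slide 1 carried vehicle CO2-O2 with rat 3 of TBA CO2-O2. Rats 1 and 2 of that TBA group were on slide 2 beside vehicle isoflurane, and TBA isoflurane had slide 3 to itself. Slide 1 was scanned on the first day and slides 2 and 3 on the second. Slide and treatment thus cannot be told apart within the isoflurane rats, and a fit with slide as a random block only assumes that rats of a slide are alike to one common degree.

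Hrh4 is the histamine H4 receptor, a G protein-coupled receptor known mainly from blood cells such as mast cells and eosinophils. Nus1 is the Nogo-B receptor, which pairs with Dhdds to form the cis-prenyltransferase that makes the carbon chain of dolichol, the lipid carrier on which N-glycans are built. Tcf15 (paraxis) and Pax3 are transcription factors of the embryo, Tcf15 a basic helix-loop-helix factor of the somites and Pax3 a paired-box factor of muscle and neural crest precursors, and Adamtsl4 is a secreted ADAMTS-like glycoprotein of fibrillin microfibrils. On an expression array a gene may have several probes that bind different stretches of its transcripts, and each reports its own value.

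All 5 genes matched a promoter of RefSeq's GRCr8 table, which holds 250 bases before and 50 after each gene's annotated start. The promoters of 3 of the genes are shown because the brightest probes of these genes moved together while the sequences at their starts differ. Capitals mark matches to the motifs searched on both strands: the GC box GGGCGG, the CCAAT box CCAAT, the E-box CACGTG, the TATA box TATAAA, the cyclic AMP response element TGACGTCA and the peroxisome proliferator response element (a direct repeat), searched by its consensus.
Hrh4, chr18:4440727-4441026, plus strand: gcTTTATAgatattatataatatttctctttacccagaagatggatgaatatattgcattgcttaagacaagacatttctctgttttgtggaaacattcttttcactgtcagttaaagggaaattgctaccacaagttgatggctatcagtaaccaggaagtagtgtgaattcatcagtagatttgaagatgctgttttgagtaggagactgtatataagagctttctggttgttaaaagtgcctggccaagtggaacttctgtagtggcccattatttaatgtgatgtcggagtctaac
Tcf15, chr3:161099051-161099350, plus strand: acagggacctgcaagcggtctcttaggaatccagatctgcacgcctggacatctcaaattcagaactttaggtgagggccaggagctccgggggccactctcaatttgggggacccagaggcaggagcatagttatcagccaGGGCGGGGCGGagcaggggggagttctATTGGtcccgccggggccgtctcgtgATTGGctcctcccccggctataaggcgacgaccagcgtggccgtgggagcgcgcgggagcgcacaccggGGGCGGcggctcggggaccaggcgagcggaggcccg
Pax3, chr9:87112482-87112781, minus strand: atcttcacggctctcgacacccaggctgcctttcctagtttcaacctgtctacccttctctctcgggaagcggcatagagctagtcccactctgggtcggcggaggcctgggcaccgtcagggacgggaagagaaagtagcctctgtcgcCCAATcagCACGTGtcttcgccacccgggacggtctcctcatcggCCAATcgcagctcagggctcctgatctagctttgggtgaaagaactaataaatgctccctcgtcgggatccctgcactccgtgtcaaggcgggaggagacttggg
The Hrh4 window was 36.3% G and C and held 1 TATA box, read on the minus strand near the 5′ end of the window. The Tcf15 window was 66.7% G and C, with 3 GC boxes, of which 2 overlap, and 2 CCAAT boxes on the minus strand. The Pax3 window was 59.3% G and C, with 2 CCAAT boxes and 1 E-box, which reads the same on both strands. The windows of Nus1 (chr20:32354269-32354568, plus strand) and Adamtsl4 (chr2:185935747-185936046, minus strand) were both 72.3% G and C, with 3 GC boxes and 1 CCAAT box in Nus1 and 2 GC boxes in Adamtsl4. Over all 33469 promoters of 300 bases the median was 51.7% G and C. A GC box was found in 33.1% of them, a CCAAT box in 37.5%, a TATA box in 14.2% and an E-box in 6.42%. No motif searched was found in all 5 windows.

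Levels are given as log2 of the processed signal minus the array's 75th percentile, so that a level of 1 is a signal at 2 times that percentile, and each probe is read only against itself in other rats. Hrh4 was read by 2 probes. Its brighter probe, A_64_P029377, stood at 2.18, 2.29 and 2.04 in the vehicle CO2-O2 rats and at 3.80, 3.71 and 3.60 in the TBA CO2-O2 rats. It stood at 3.23, 2.71 and 2.66 in the vehicle isoflurane rats and at 3.19, 3.80 and 3.67 in the TBA isoflurane rats. The CO2-O2 groups lay apart, by 1.53 ± 0.18 (SE, n = 3 against 3), a 2.89-fold difference. Under isoflurane the groups overlapped, because vehicle rat 1 read 3.23 and TBA rat 1 read 3.19. The dimmer Hrh4 probe, A_43_P13148, was well above background on 10 of 12 arrays. It read -5.02, -5.24 and -5.37 against -4.68, -4.20 and -5.26 under CO2-O2, vehicle first, and -5.08, -5.25 and -4.37 against -4.38, -4.87 and -4.17 under isoflurane. Its groups overlapped in both arms.

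Nus1 was read by 3 probes, of which 1 moved. Probe A_64_P145917 stood at 2.90, 3.02 and 2.80 in the vehicle CO2-O2 rats against 4.39, 4.34 and 4.32 with TBA. Under isoflurane it stood at 3.79, 3.37 and 3.28 against 3.99, 4.41 and 4.46. The TBA rats were above the vehicle rats in both arms without overlap, by 1.44 ± 0.15 (SE, 2.71-fold) under CO2-O2. The second probe, A_42_P758122, stood between 2.89 and 3.18 on all 12 arrays. The third, A_42_P476269, stood between -0.68 and -0.22. Neither separated the groups in either arm, and their CO2-O2 differences were -0.04 ± 0.08 and 0.14 ± 0.13 (SE).

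Tcf15 was read by 2 probes, of which 1 moved. The brighter, A_64_P079930, stood at 5.79, 5.91 and 5.78 in the vehicle CO2-O2 rats and at 6.86, 6.89 and 6.93 with TBA, a difference of 1.07 ± 0.11 (SE, 2.10-fold). Under isoflurane it stood at 6.45, 6.10 and 6.09 against 6.65, 6.93 and 6.93. The groups did not overlap in either arm. The dimmer probe, A_44_P124013, was well above background on all 12 arrays and stood between -3.63 and -3.16. Its CO2-O2 difference was -0.09 ± 0.10 (SE) and its groups overlapped in both arms.

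Pax3 was read by 4 probes, and only 1 of them gave a signal well above background on any array. That probe, A_64_P054251, stood at 4.41, 4.51 and 4.34 in the vehicle CO2-O2 rats and at 5.35, 5.32 and 5.39 with TBA, a difference of 0.94 ± 0.12 (SE, 1.91-fold). Under isoflurane it stood at 4.96, 4.56 and 4.56 against 5.09, 5.42 and 5.36, again without overlap. The other probes, A_64_P054243, A_44_P365384 and A_44_P231498, were not well above background on any of the 12 arrays, and no fold is given for them. The measured rise of Pax3 therefore rested on 1 probe of 4.

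Adamtsl4 was read by a single probe, A_44_P387308, so it has no second probe to set beside it. It stood at -3.61, -3.57 and -3.66 in the vehicle CO2-O2 rats and at -2.46, -2.65 and -2.64 with TBA, a difference of 1.03 ± 0.11 (SE, 2.04-fold). Under isoflurane it stood at -3.12, -3.16 and -3.45 against -3.14, -2.79 and -2.93, and the groups overlapped. With normexp background correction its CO2-O2 difference was 0.61 in place of 1.03.

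**Figure D1:**
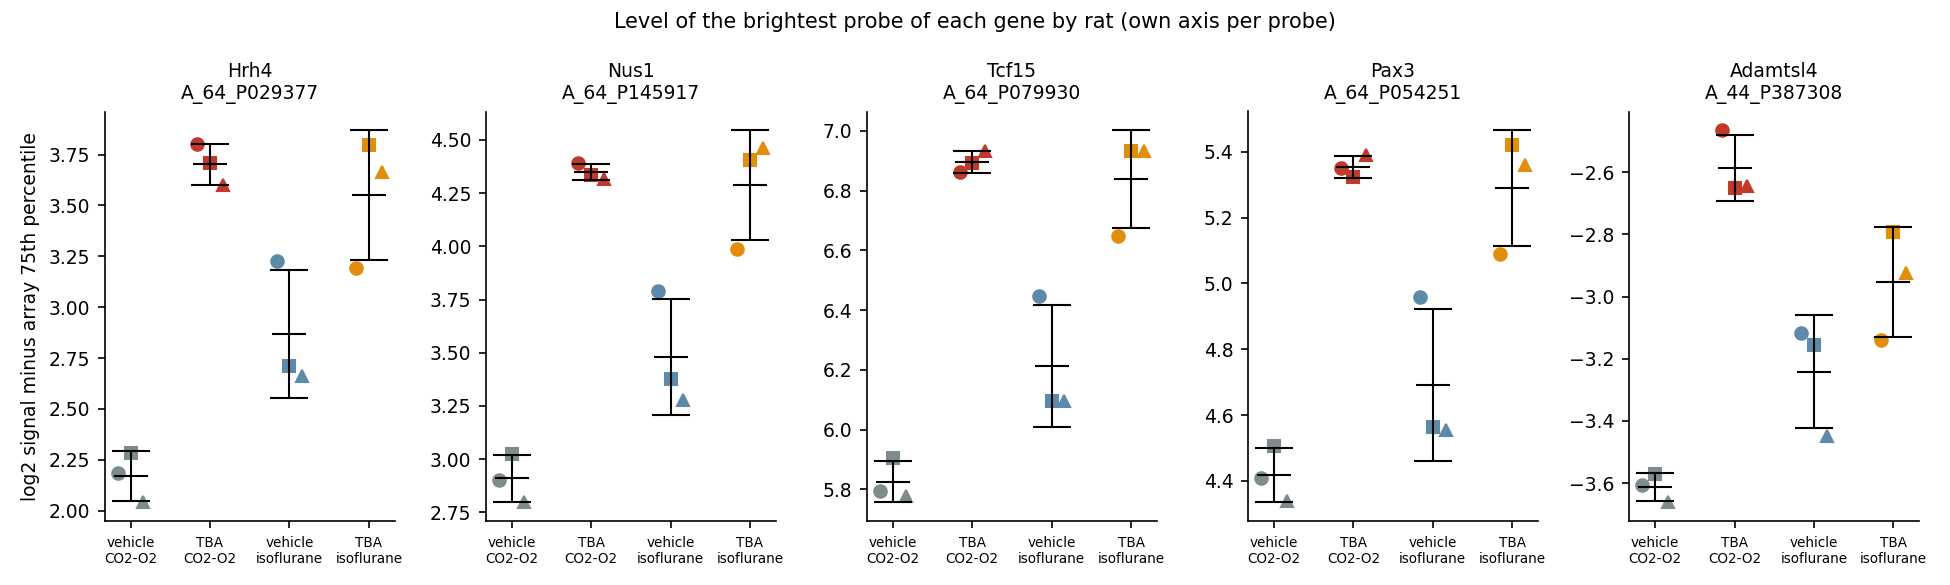
Level of the brightest probe of each gene (log2 signal minus the array's 75th percentile, own axis for each probe) in each of the 12 rats by group, with bars for the mean ± SD of 3 rats and circles, squares and triangles for rats 1, 2 and 3. In all 5 panels the vehicle CO2-O2 rats are lowest and do not overlap the TBA CO2-O2 rats, and for Hrh4 and Adamtsl4 the isoflurane groups overlap.

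Under CO2-O2, all 5 members had non-overlapping groups, which the choice of members fixed; of all features, 11.9% were higher without overlap and 0.128% were called higher at an adjusted p under 0.05. TBA CO2-O2 rat 3 shared slide 1 with the vehicle rats, and on that slide alone the brightest probe differed by 1.43 for Hrh4, 1.41 for Nus1, 1.11 for Tcf15, 0.97 for Pax3 and 0.97 for Adamtsl4. The slide 2 TBA rats stood above the slide 1 vehicle rats by 1.59, 1.45, 1.05, 0.92 and 1.05 in the same order. Just outside the members by size lay Cldn22, a claudin of tight junctions, with a difference of 2.25, next above Hrh4, and Acot12, an acetyl-CoA thioesterase, with 0.93, next below Pax3.

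Under isoflurane, none of the 5 genes passed an adjusted p of 0.05 in limma over all features, against a background of 0.395% of features called in either direction. Before adjustment all 5 had a limma p under 0.05, as did 5284 features. All 5 were higher in TBA rats, as were 53.5% of all features. Nus1 was higher by 0.81 ± 0.15 (SE, 95% interval 0.47 to 1.14, limma adjusted p = 0.0603) and Tcf15 by 0.63 ± 0.11 (0.38 to 0.87, limma adjusted p = 0.0511). The Pax3 difference was 0.60 ± 0.12 (0.33 to 0.87, limma adjusted p = 0.0680). These 3 genes had groups that did not overlap, as did 14.2% of features in the same direction. Hrh4 differed by 0.68 ± 0.18 (0.28 to 1.09, limma adjusted p = 0.105) and Adamtsl4 by 0.29 ± 0.11 (0.04 to 0.54, limma adjusted p = 0.219), with overlap in both. The Adamtsl4 difference was 0.18 without vehicle isoflurane rat 3. Vehicle isoflurane rat 1 was the highest of its group for all 5 probes. Without it, 3 of the 5 passed in limma: Nus1 at 0.96 (adjusted p = 0.0432), Tcf15 at 0.74 (adjusted p = 0.0316) and Pax3 at 0.73 (adjusted p = 0.0376). Under median scaling in place of the 75th percentile the same 3 passed, with limma adjusted p-values of 0.0457, 0.0429 and 0.0482. In the other 11 cases of leaving out 1 rat, none of the 5 passed. For Tcf15, the closest to the threshold, the limma adjusted p was 0.114 under quantile normalization and 0.101 with slide as a random block. It was 0.211 with only the 6 isoflurane arrays in the fit, which takes no spread from the CO2-O2 rats. In that fit the SE was 0.14 for Tcf15 (0.11 in the main fit) and 0.19 for Nus1 (0.15 in the main fit). Over the 10 alternatives other than leaving out a rat, Tcf15 passed in 3.

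The other probes gave smaller isoflurane values. As a single probe in limma over 40216 kept probes, Hrh4 A_43_P13148 differed by 0.43 ± 0.30 (SE, adjusted p = 0.489) and Tcf15 A_44_P124013 by -0.18 ± 0.10 (adjusted p = 0.389). Nus1 A_42_P476269 differed by 0.02 ± 0.13 (adjusted p = 0.946), and A_42_P758122 had a 95% interval of -0.19 to 0.18 (adjusted p = 0.993). None of the 9 probes of the 5 genes was called in limma, against 0.361% of kept probes, and the 5 brightest had an unadjusted p under 0.05, as did 7343 kept probes.

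**Figure D2:**
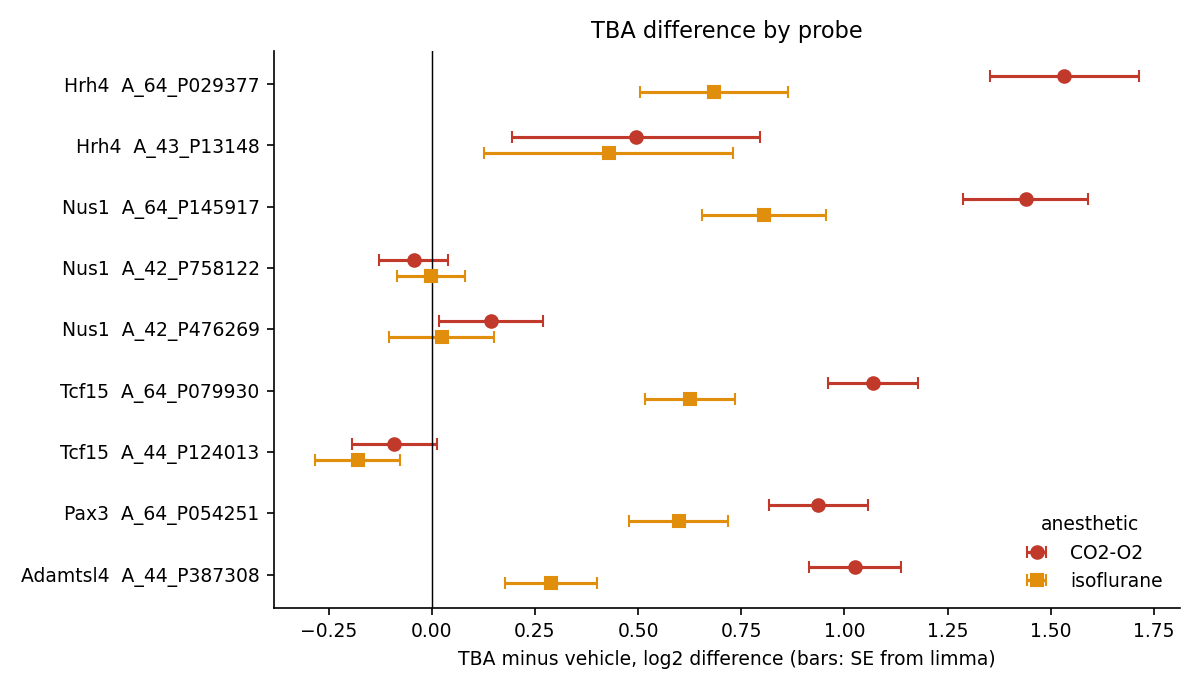
TBA minus vehicle (log2 difference) for the 9 kept probes of the 5 genes, circles for CO2-O2 and squares for isoflurane, with bars for the limma standard error. The 5 brightest probes lie between 0.94 and 1.53 under CO2-O2 and between 0.29 and 0.81 under isoflurane, while the other probes of Nus1 and Tcf15 lie between -0.18 and 0.14 in both arms.

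Whether probes of one gene changed unequally was tested on their difference within each array, for the isoflurane comparison only. The spread was again pooled over all 4 groups, the CO2-O2 rats included. For Tcf15 the brighter probe changed by 0.80 ± 0.15 more than the dimmer (SE, limma adjusted p = 0.0458 over 11983 probe pairs). For Nus1, A_64_P145917 changed by 0.78 ± 0.15 more than A_42_P476269 (limma adjusted p = 0.0483) and by 0.81 ± 0.18 more than A_42_P758122 (limma adjusted p = 0.0638). The pair of A_42 probes of Nus1 differed from each other by -0.03 ± 0.15 (limma adjusted p = 0.946), and the Hrh4 pair by 0.25 ± 0.37 (limma adjusted p = 0.740). Thus 2 of 5 pairs passed, against a background of 0.901% of pairs, and both calls were narrow. The pairs are not separate observations: most are of Nus1, and the brightest probes of Nus1 and Tcf15 correlated at r = 0.997 over the 12 arrays. No pair passed under quantile normalization, with no filter on dim probes, with slide as a random block, or with only the 6 isoflurane arrays in the fit. In the fit of those 6 arrays the limma adjusted p was 0.135 for Tcf15 and 0.128 for the called Nus1 pair. Leaving out 1 rat at a time left 0 pairs in 10 of 12 cases, 1 pair without TBA CO2-O2 rat 2 and 2 pairs without TBA CO2-O2 rat 3. The differences themselves stayed between 0.60 and 0.81 for Tcf15 and between 0.70 and 0.78 for the called Nus1 pair over the alternatives other than leaving out a rat.

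The CO2-O2 values of the same pairs, which share the contrast that chose the members and carry no test, were 1.16 for Tcf15, 1.30 and 1.48 for the moving Nus1 probe against its others, and 1.04 for Hrh4. Across the 6032 genes with 2 or more kept probes, the range of the CO2-O2 difference over a gene's probes had a median of 0.10 and reached 1 in 60 genes. The ranges were 1.48 for Nus1, 1.16 for Tcf15 and 1.04 for Hrh4, larger than in 99.6%, 99.4% and 99.1% of those genes. Choosing genes by a large CO2-O2 rise of the brightest probe favours a large range there, so nothing is read from these shares. Under isoflurane the median was 0.15, and the ranges were 0.81 for Nus1 and 0.80 for Tcf15, each larger than in 97.8% of genes, and 0.25 for Hrh4, larger than in 74.4%. With the mean of a gene's kept probes in place of the brightest, the CO2-O2 difference was 1.01 for Hrh4, 0.51 for Nus1 and 0.49 for Tcf15, and the isoflurane difference 0.56, 0.28 and 0.22, none of them called in limma (adjusted p = 0.142, 0.149 and 0.188).

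The probes were also compared across single rats. Over the 12 arrays the brightest probes of the 5 genes correlated with each other at r = 0.927 to 0.997, Tcf15 and Nus1 the closest. Against the other probes of their own gene, the correlations were 0.51 for Hrh4, -0.37 for Tcf15, and -0.23 and 0.47 for Nus1. These correlations are descriptions over 12 arrays that share the group differences used to choose the members, which favours agreement among the brightest probes. For Hrh4, Nus1 and Tcf15, the brightest probe thus followed the other 4 brightest probes more closely than the other probes of its own gene. The other Hrh4 probe lay near the lowest level well above background (-5.73, median over arrays), and the Hrh4 pair was not called under isoflurane.

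**Figure D3:**
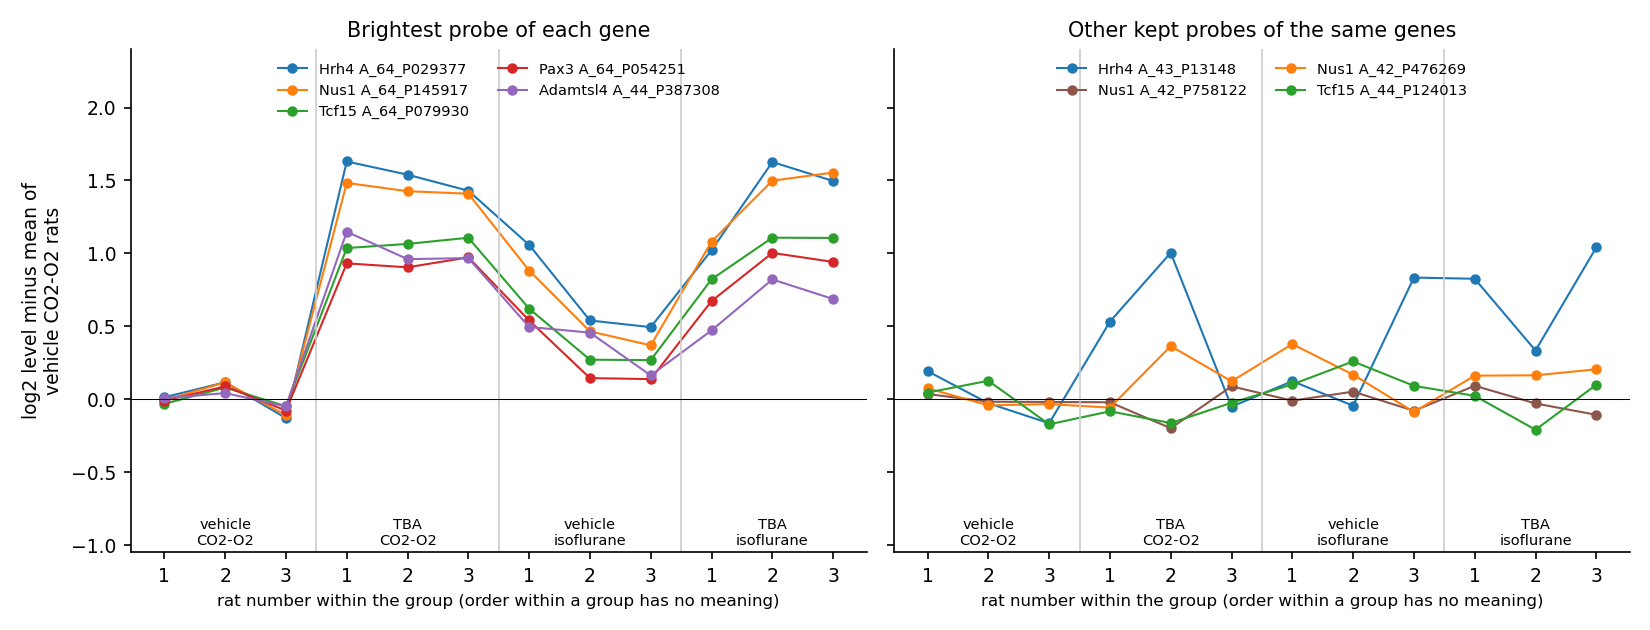
Level of each kept probe minus its mean in the vehicle CO2-O2 rats (log2) on each of the 12 arrays, grouped by treatment and anesthetic, with the brightest probe of each gene on the left and the other kept probes on the right. On the left the lines follow a similar course, although the order of the TBA CO2-O2 rats differs between probes. Vehicle isoflurane rat 1 is highest and TBA isoflurane rat 1 lowest in their groups for all 5 probes. On the right no line separates TBA from vehicle rats under the same anesthetic.

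The vehicle groups of the anesthetics differed too. In all 5, the vehicle rats killed under isoflurane lay above those killed under CO2-O2 without overlap, by 0.70 for Hrh4, 0.57 for Nus1, 0.39 for Tcf15, 0.27 for Pax3 and 0.37 for Adamtsl4. Of all features, 14.9% were higher without overlap in that comparison, which shares the vehicle CO2-O2 rats with the choice of members and was not tested for them. The vehicle CO2-O2 rats were all on slide 1, scanned on the first day, and the vehicle isoflurane rats all on slide 2, scanned on the second, so anesthetic, slide and scan day cannot be told apart here. In the TBA rats the anesthetic groups overlapped for Hrh4, Nus1, Tcf15 and Pax3. Adamtsl4 was lower under isoflurane (difference -0.37), without overlap, as were 7.23% of features. That comparison shares the TBA CO2-O2 rats with the choice of members, which favours a lower isoflurane value, and was not tested. The TBA isoflurane rats were alone on slide 3, so anesthetic and slide cannot be told apart there either. The TBA difference was smaller under isoflurane than under CO2-O2 in all 5, by 0.34 (Pax3) to 0.85 (Hrh4); the choice by the CO2-O2 values favours that order, so nothing is read from it. No feature passed the test of that difference in limma (0 of 29603, and 3582 before adjustment).

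The genes most alike in pattern over the 12 arrays were mostly members. The choice favours that, since these arrays hold the CO2-O2 differences that picked the members. For Hrh4 the genes most alike were Nus1, Tcf15 and Iba57 (r = 0.982), a mitochondrial iron-sulfur cluster assembly factor. For Nus1 they were Tcf15, Hrh4 and Pax3, and for Tcf15 they were Nus1, Pax3 and Spag7 (r = 0.993). For Pax3 they were Spag7 (r = 0.996), Tcf15 and Cyb5r1 (r = 0.995), a cytochrome b5 reductase. Adamtsl4 stood apart, with Acot12 (r = 0.970), Pnpla7 (r = 0.952), a lysophospholipase, and Hrh4 (r = 0.951). Of the non-members named, Iba57, Spag7, Cyb5r1 and Acot12 were themselves called CO2-O2 risers.

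Of the 5 brightest probes, 4 have names that begin with A_64, a naming series of the array's maker. This feature was looked at after the values were seen. Of kept probes, 29.8% carried that prefix, and of the features with a symbol 32.9% did. Among the 23 called CO2-O2 risers with a symbol, which include the 5 members, 19 did (82.6%). Of single kept probes called higher under CO2-O2, with or without a symbol, 26 were A_64, 11 A_44, 2 A_43 and 2 of other names. Of the 145 kept probes called under isoflurane in either direction, 58 were A_64, 65 A_44, 12 A_43, 8 A_42 and 2 of other names. At a correlation of at least 0.95 over 12 arrays, 18 other probes went with the Tcf15 probe, 17 of them A_64, and 18 with the Pax3 probe, also 17 of them A_64. For Nus1 it was 14 of 18, for Hrh4 11 of 15 and for Adamtsl4, itself an A_44 probe, 3 of 7. They follow probes chosen for the CO2-O2 difference, so their direction there is not counted.

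Of the 23 risers, 17 had 2 or more kept probes, and in 7 no other probe of the gene reached 0.5 times the rise of the brightest. Hrh4, Nus1 and Tcf15 were 3 of these, beside Iba57, Slc32a1, Spag7 and Hivep3, and all 7 had an A_64 probe as the brightest, as did 15 of the 17. In the others, except Cyb5r1, every other kept probe of the gene reached at least 0.5 times the rise of the brightest. Slc2a2, the glucose transporter GLUT2, was higher by 0.88 with other probes at 0.70 and 0.83, and the lactate transporter gene Slc5a12 by 0.80 with another probe at 1.05. In Cyb5r1 the probes lay far apart, with the brightest at 0.85 and the others from -0.17 to 2.59. Whether the probes of Hrh4, Nus1, Tcf15 and Pax3 bind only the transcript they are named for was not tested, since probe sequences were not used here.

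**Figure D4:**
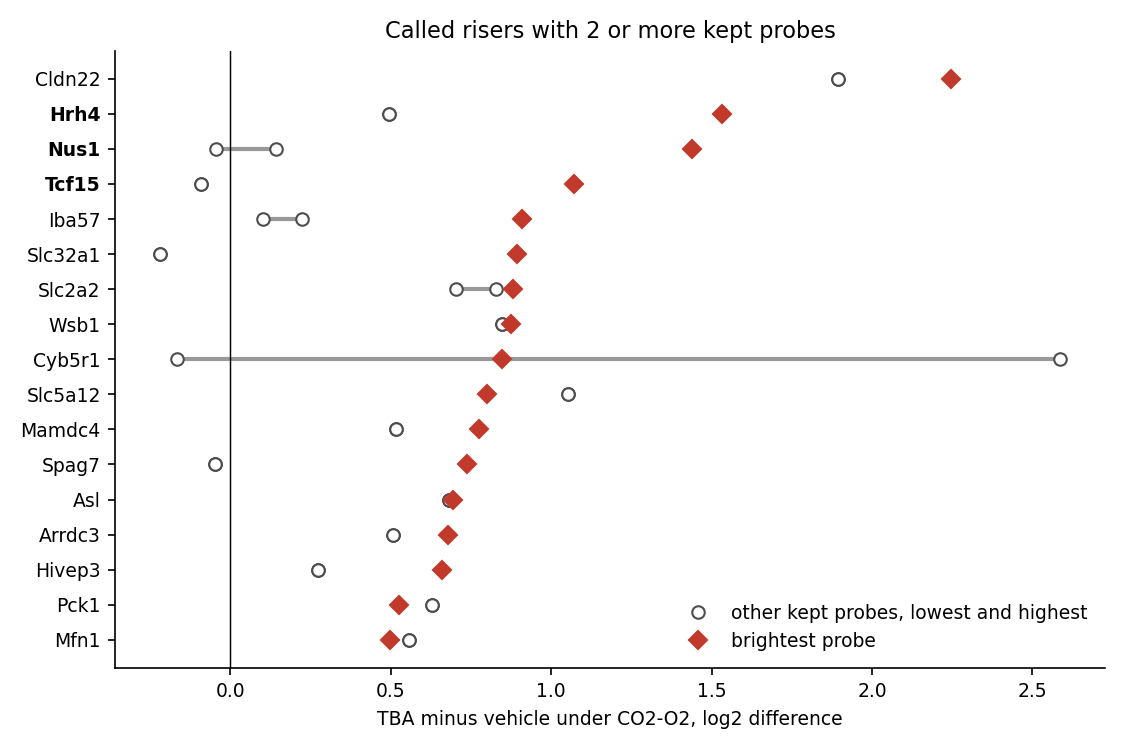
TBA minus vehicle under CO2-O2 (log2 difference) for the 17 called risers with 2 or more kept probes, diamonds for the brightest probe and open circles for the lowest and highest of the gene's other kept probes, with the described genes in bold. Hrh4, Nus1 and Tcf15 have their other probes at 0.50 or less, while Cldn22, Slc2a2 and Wsb1 have theirs close to the diamond.

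The genes next to the members on the chromosome and those of the same pathways were read for the same rats. No protein-coding gene overlaps any of the 5 in the GRCr8 annotation. Of the 10 nearest protein-coding neighbours 8 were tested, none was called in limma in either arm (unadjusted p under 0.05 in 2 under CO2-O2 and 3 under isoflurane), and their CO2-O2 differences ran from -0.40 to 0.30. Pathway lists held 131 other genes, of which 93 were tested. In limma none was called in either arm, against 0.149% of features called under CO2-O2 and 0.395% under isoflurane, while 17 and 16 had an unadjusted p under 0.05, beside 4221 and 5284 of the 29603 features. With normexp background correction 7 were called under isoflurane. Of the 93, 41 were above 0 under CO2-O2 (median -0.03), beside 53.6% of all features, and 52 under isoflurane (median 0.02).

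Around Hrh4, 8 of 12 histamine genes were tested, with a median CO2-O2 difference of -0.03. Hdc, which makes histamine, stood at 0.05 ± 0.16 (SE). Hnmt, which methylates histamine, stood at -1.22 ± 0.55 and Slc22a2, the cation transporter OCT2, at -0.76 ± 0.33, both lower without overlap and neither called (limma adjusted p = 0.349 and 0.339). Under isoflurane these were 0.15 and -0.01. Aoc1, which oxidises histamine, had no kept probe. Of mast cell markers 4 of 10 were measured above background, with a summed level of 2.65 to 3.12 times the 75th percentile in vehicle and 2.95 to 3.18 in TBA rats under CO2-O2, and 2.90 to 3.25 and 3.08 to 3.26 under isoflurane. Of eosinophil markers 1 of 5 was, Prg2, with a TBA difference of 1.48 ± 0.72 (SE, limma adjusted p = 0.388, groups overlapping) under CO2-O2 and 0.19 ± 0.72 (limma adjusted p = 0.925) under isoflurane. Prg2 was well above background on 11 of 12 arrays. Its level was 0.0056 to 0.069 times the 75th percentile in vehicle and 0.059 to 0.082 in TBA rats under CO2-O2, and 0.059 to 0.068 and 0.070 to 0.078 under isoflurane. Their part in the Hrh4 value was not tested.

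Around Nus1, all 20 dolichol and lipid-linked oligosaccharide genes on the array were tested, 8 above 0 under CO2-O2 and 9 under isoflurane, with medians of -0.03 in each arm. Dhdds, the partner of Nus1, stood at 0.11 ± 0.06 (SE, limma adjusted p = 0.415) under CO2-O2 and 0.01 under isoflurane. Srd5a3, the polyprenol reductase, stood at -0.24 under CO2-O2, the dolichol kinase Dolk at 0.15 and Dpagt1, which starts the oligosaccharide, at -0.08, none of them called. The oligosaccharyltransferase subunits had 3 of 10 above 0 under CO2-O2 and 7 of 10 under isoflurane. The mevalonate route to the prenyl precursors had 1 of 8 above 0 under CO2-O2, with a median of -0.12, and 3 of 8 under isoflurane.

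Around Tcf15, its bHLH partners Tcf3 and Tcf12 stood at -0.04 ± 0.09 and -0.06 ± 0.17 (SE) under CO2-O2. The 7 partners and inhibitors had a median of 0.27 under CO2-O2 and 0.20 under isoflurane, where all features had 0.02 in both. The inhibitors Id2 and Id3, named after their values were seen, stood at 0.70 ± 0.17 and 0.41 ± 0.14 under CO2-O2 and at 0.46 and 0.44 under isoflurane, without overlap in either arm and not called (limma adjusted p = 0.137 and 0.240, then 0.190 and 0.150). Of 13 somite factors 7 were tested, with a median of -0.01. Meox1 stood at -0.33 ± 0.29 (SE) and Tcf21, a factor of kidney stroma and podocytes, at -0.27 ± 0.14 under CO2-O2. Under isoflurane Meox1 stood at 0.39 and Tcf21 at 0.22. Neither was called in either arm (limma adjusted p = 0.655 and 0.424, then 0.523 and 0.460).

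Around Pax3, 4 of 8 other Pax genes were tested, 4 above 0 under CO2-O2 (median 0.44) and 3 under isoflurane (median 0.43). Pax2 and Pax8, the Pax genes of the kidney lineage, stood at 0.29 ± 0.14 and 0.09 ± 0.09 (SE) under CO2-O2 and at 0.47 and 0.39 under isoflurane, where the groups lay apart and neither was called (limma adjusted p = 0.130 and 0.0853). Pax6, named after its values were seen, stood at 0.90 ± 0.34 and 0.74 ± 0.34, without overlap in either arm and not called (limma adjusted p = 0.283 and 0.296). Pax5, named likewise, stood at 0.58 ± 0.31 under CO2-O2, without overlap, and at -0.25 ± 0.31 under isoflurane (limma adjusted p = 0.422 and 0.717). Pax7, the closest relative of Pax3, had no kept probe. Mitf, a Pax3 target in melanocytes, stood at -0.03 under CO2-O2. The partners and targets in muscle and melanocyte had 5 of 7 above 0 under CO2-O2 with a median of 0.05. Of skeletal muscle markers 5 of 8 were above background, with summed levels of 0.30 to 0.60 in vehicle and 0.49 to 0.82 in TBA rats under CO2-O2, and 0.36 to 0.66 and 0.34 to 0.81 under isoflurane. Of melanocyte markers 2 of 6 were, at 0.161 to 0.256 and 0.157 to 0.589 under CO2-O2 and 0.152 to 0.213 and 0.192 to 0.417 under isoflurane. Their part in the Pax3 value was not tested.

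Around Adamtsl4, the microfibril and elastic fibre genes had 5 of 14 above 0 under CO2-O2 and 7 of 14 under isoflurane, with medians of -0.04 and -0.03. Fbn1, the fibrillin that microfibrils are built from, stood at -0.05 ± 0.16 (SE) and Ltbp1, which tethers latent TGF-beta to them, at 0.02 ± 0.21. The ADAMTS proteases had 4 of 7 above 0 with a median of 0.01. Adamtsl5 had no kept probe, and no probe was named Adamtsl2. Of fibroblast and mural cell markers, 1 of 8 was above 0 under CO2-O2 and 6 of 8 under isoflurane, with medians of -0.10 and 0.09, and their part in the Adamtsl4 value was not tested.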

How the data were processed

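Total RNA of 12 renal cortex samples, 1 per rat, was labelled with Cy3 and hybridised to one-colour Agilent arrays, per the labels' protocols. The deposited files hold spot intensity made, per the file headers, with version 10.7.1.1 of Agilent Feature Extraction, background-subtracted and not normalized between arrays; the array's annotation build is rn4 per the file headers. The deposited series table holds, on the evidence of its values, the ratio of intensity to the array's 75th percentile (column medians 0.101 to 0.107), and each column matched another replicate of the same group (r = 0.9999). Groups came from the labels.

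Log2 of the processed signal minus the array's 75th percentile was analysed. Probes were named through RefSeq (GRCr8): 27460 of 61657 had 1 symbol and 34197 had none. Of 40216 probes kept, 11689 features were the brightest per symbol and 17914 were probes without a symbol, 29603 in all. Group means were estimated in R 4.3.3 by limma 3.58.1 (lmFit and eBayes on 8 residual degrees of freedom), with Benjamini-Hochberg adjustment over all features, probes or probe pairs and a threshold of 0.05. Named genes were the members, preset partners in each pathway, any called pathway gene, the 3 most alike features and the next riser; Id2, Id3, Pax5, Pax6, Prg2 and the other risers were named after their values were seen. Members and lists were chosen with earlier results of these data known. Alternatives were the background correction, scaling, filter, probe rule, series table, slide, replicate block, arrays fitted and each rat left out. The number of arrays limits the precision.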

Additional observations from a re-analysis of the deposited data

Results flagged for a closer look

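Among the cell type markers set beside the 5 genes, 2 had TBA rats below vehicle rats under CO2-O2 and above them under isoflurane. The groups did not overlap in either arm. The 2 genes were picked by that pattern, and the share of all features with it was not counted. Slide and treatment cannot be told apart within the isoflurane rats. Lrp2 (megalin), an uptake receptor of the proximal tubule, differed between TBA and vehicle rats by -0.15 ± 0.08 (SE) under CO2-O2 and 0.26 ± 0.08 under isoflurane, so that the arms differed by 0.41 ± 0.12 (limma adjusted p = 0.276). Pdgfra, a receptor of fibroblasts, stood at -0.21 ± 0.11 and 0.37 ± 0.11, and the arms differed by 0.57 ± 0.15 (limma adjusted p = 0.256). Neither difference passed the threshold.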

How the results depend on the processing

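Under isoflurane the main setting called 0 of 5 genes and 0 of 9 probes. Normexp background correction called 2 genes and 2 probes, and median scaling 3 and 3. The filter that asked for all 12 arrays above background called 1 and 1. Leaving out 1 rat gave 0 of each in 11 of 12 cases, and 3 of each without vehicle isoflurane rat 1. The count of probe pairs that differed, 2, was 0 with quantile normalization, with no filter on dim probes, with slide as a random block, with the replicate block and with only the 6 arrays compared, and 0 to 2 when 1 rat was left out. Pathway genes called under isoflurane, 0, became 7 with normexp, and 0 to 1 when 1 rat was left out. The Hrh4 pair (0.25) ran from -0.11 to 0.53 when 1 rat was left out, turning to -0.11 without vehicle isoflurane rat 3 and to -0.07 without TBA isoflurane rat 2. Replicate numbers did not pair the rats: deviations of same-numbered rats correlated at 0.02 to 0.13 under CO2-O2 and -0.13 to 0.07 under isoflurane, and the replicate block ended the pair calls and no other. Slide as a fixed term could not be fitted for isoflurane, where slide 3 held the TBA rats alone. The causes were not tested.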
